A study of Mus musculus with 8 samples.

Results

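The complement genes measured here are C1qa, C1qb, C1qc, C2, C3, C4b, Cfb, Cfp and Serping1, 9 of the 24787 genes listed in the single-cell data, and they were chosen by name as components of the complement cascade, by a rule that names no measured value, though with earlier results of these data known. They were followed through macrophages, other immune cells and tumor cells of MC38 tumors, a colon carcinoma line grown subcutaneously in C57BL/6 mice. Tumors were taken 24 hours after 1 of 3 injections: saline (3 tumors), free R848, a small-molecule agonist of TLR7/8 (3 tumors), or medium R848-BPD, a bottlebrush polymer prodrug from which R848 is released at an intermediate rate (2 tumors). The polymer carrier and linker are the named difference in structure between the 2 drugs, and the methods of the single-cell experiment repeat no dose. For the study's imaging and therapy work, both drugs were dosed by the highest amount of free R848 that mice tolerated, and whether this held here was not stated, so the comparison of the drugs is one of unstated doses. The animals of the 3 groups carried no genetic change that the sources name, and saline, not empty polymer, was the control for both drugs. Cells were sorted by CD45, the marker of blood-derived cells, and CD45+ and CD45- cells were loaded at 9:1 onto Seq-Well arrays, so tumor cells and fibroblasts were held low by design and cell numbers do not give the makeup of a tumor.

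Complement is a cascade of plasma and locally made proteins that marks surfaces and cells for uptake. The classical route opens with C1q, a protein built from the chains of C1qa, C1qb and C1qc, which is known as a product of tissue macrophages. C2 and C4b then supply the parts of the classical C3-cleaving enzyme. The alternative route uses Cfb, factor B, as its protease and Cfp, properdin, as the protein that stabilizes its enzyme. Both routes cleave C3. Serping1 encodes the C1 inhibitor, which blocks the proteases bound to C1q.

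All 9 genes lie on the minus strand of GRCm38 in the GENCODE vM21 annotation, where each is annotated as protein coding. The C1q genes sit side by side at chr4:136880129-136886187 (C1qb), chr4:136889804-136893065 (C1qc) and chr4:136895917-136898803 (C1qa), within 18675 bases. Cfb at chr17:34856374-34862518 and C2 at chr17:34862604-34898265 are 85 bases apart, and C4b lies nearby at chr17:34728380-34743882. C4a, a near-identical copy of C4b, starts 65209 bases beyond it, so reads of C4b may have been split between the copies and its values are uncertain. C3 is at chr17:57203970-57228136, Cfp at chrX:20925454-20931555 and Serping1 at chr2:84765387-84775444.

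Promoter sequence was found in RefSeq (GRCm38.p6) for 4 of the 9 genes, C1qb, C1qc, C3 and Cfp, and not for C1qa, C2, C4b, Cfb and Serping1. The 250 bases before the start site are shown for C1qb and C1qc, neighbours whose levels moved together, and for Cfp, the gene that fell in DC-like cells below, each read 5′ to 3′ along the gene. Capitals mark a match to the NF-kB site. C1qb spans chr4:136886201-136886450, C1qc chr4:136892915-136893164 and Cfp chrX:20931556-20931805, all on the minus strand.
C1qb: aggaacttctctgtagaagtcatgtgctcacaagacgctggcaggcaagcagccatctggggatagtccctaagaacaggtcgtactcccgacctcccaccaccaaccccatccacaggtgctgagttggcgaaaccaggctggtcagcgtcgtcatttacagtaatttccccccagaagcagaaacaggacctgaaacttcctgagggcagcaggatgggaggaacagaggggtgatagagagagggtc
C1qc: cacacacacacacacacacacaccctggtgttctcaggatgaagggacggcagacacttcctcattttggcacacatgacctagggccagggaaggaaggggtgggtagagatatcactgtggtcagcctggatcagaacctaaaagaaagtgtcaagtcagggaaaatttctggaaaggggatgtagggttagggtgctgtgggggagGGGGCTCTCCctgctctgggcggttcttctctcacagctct
Cfp: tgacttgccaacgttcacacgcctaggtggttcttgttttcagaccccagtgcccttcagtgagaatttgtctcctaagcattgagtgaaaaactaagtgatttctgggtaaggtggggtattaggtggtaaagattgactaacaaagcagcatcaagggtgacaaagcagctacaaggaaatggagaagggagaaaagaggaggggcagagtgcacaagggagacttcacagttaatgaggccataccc
Over 300 bases, 250 before and 50 after the start site, 4.51% of 32851 RefSeq promoters held the NF-kB site on either strand. Of the 4 promoters of the complement genes, that of C1qc held it, with its first base at -41. The core of the interferon-stimulated response element, GAAANNGAAA, was in 3.44% of all promoters and the gamma-activated site, TTCNNNGAA, in 8.3%, and neither was in these 4 windows. A match is a description of letters only.

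The 8 tumors gave 5867590 to 12422614 unique molecular identifiers (UMIs), each standing for 1 captured transcript, and 9886 of 10791 barcodes passed the limits on cell quality. Clusters built without complement genes were named by marker genes as monocyte/macrophage-like (5433 cells), MC38-like (1642), NK-like (974), DC-like (651), T-like (497), with smaller classes of osteoclast-like (142), fibroblast-like (50) and neutrophil-like (139) cells. A cluster of 358 poor-quality cells was set aside, and 23 barcodes occurred in more than 1 tumor. Without the cells that carried them, an alternative added after the data were seen, the 3 main calls below gave log2 fold changes of 1.79 (C2), 0.76 (Cfb) and -2.19 (Cfp), as with them. Saline replicate 2 stood apart. All 10 genes used as tracers of macrophage RNA (among them Apoe, Lyz2, Ctss, Cd68, Csf1r and Mrc1) were highest there in T-like and in MC38-like cells, and 7 of 10 in NK-like cells. Tumors, not cells, were the replicates. Whether they shared a sequencing run was not given, so such a batch and treatment cannot be told apart.

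Most C1q UMIs captured from these tumors lay in monocyte/macrophage-like cells. The monocyte/macrophage-like class held 95.5% of all C1qa UMIs, 95.1% of C1qb and 95.5% of C1qc. It also held 86.8% of Cfp and 85.1% of Cfb. Such shares follow the size of a class, here 5433 cells. The 139 neutrophil-like cells held 596 C1qa, 722 C1qb and 430 C1qc UMIs, and their level was not compared. The remaining genes were shared with stroma. Pooled over 8 tumors, 59.7% of C3 UMIs were in monocyte/macrophage-like, 29.7% in fibroblast-like and 5.22% in MC38-like cells. For C4b the shares were 50.4%, 41.2% and 6.71%. C2 was rare, with 561 UMIs in all, of which MC38-like cells held 40.6%, fibroblast-like cells 39.8% and monocyte/macrophage-like cells 84 UMIs. Serping1 was a fibroblast transcript, since 97.5% of its 2346 UMIs lay in the 50 fibroblast-like cells. The fibroblast-like shares of C3, C4b and C2 rested on the medium R848-BPD tumors, which gave most of these cells. Without medium R848-BPD replicate 2 they were 16.4%, 25.7% and 27.7%, and without both prodrug tumors 7.87%, 14.6% and 14.4%, where monocyte/macrophage-like cells held 81.4% of C3 and 74.5% of C4b. By tumor the fibroblast-like share of C3 ran from 0% in saline replicate 3 to 71.5% in medium R848-BPD replicate 2, and that of C4b from 0% to 74.7%. Serping1 remained at 93.9% without both prodrug tumors.

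**Figure D1:**
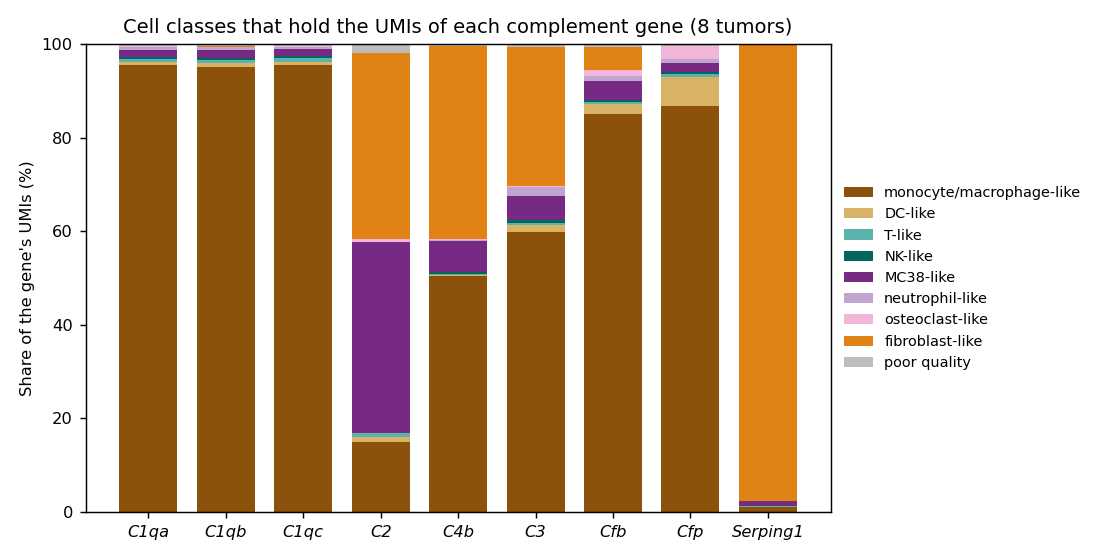
Share of each gene's UMIs (y axis, percent, 8 tumors pooled) held by each cell class (colors), 1 bar per complement gene. The C1q genes, Cfb and Cfp are over 85% monocyte/macrophage-like, C3 and C4b are divided between that class and fibroblast-like cells, a division that rests mostly on the 2 medium R848-BPD tumors, and Serping1 is 97.5% fibroblast-like.

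Among the 50 fibroblast-like cells, all 50 had a Serping1 UMI, 48 had C4b, 46 had C3, 42 had C2 and 41 had Cfb. By contrast, 11 of these cells had C1qb, 6 had C1qa, 4 had C1qc and 3 had Cfp. Serping1 was also the leading gene of this cluster, and no test of a cluster against other cells was made. They came to 11 and 28 cells in the medium R848-BPD tumors, to 1, 4 and 1 in the free R848 tumors and to 3, 2 and 0 in the saline tumors. Over all cells of a tumor, Serping1 UMIs numbered 768 and 1202 after medium R848-BPD, 37, 115 and 24 after free R848, and 139, 56 and 5 after saline. Both prodrug tumors were above all others in Serping1 and in fibroblast-like cells alike, so the sum over a tumor moved with the number of fibroblast-like cells caught. With this few cells, no change within fibroblasts could be tested.

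The next question was whether TLR7/8 stimulation altered complement expression in monocyte/macrophage-like cells, the class that held most C1q, Cfb and Cfp UMIs. UMIs were summed per tumor and class and tested with edgeR, and expression is given on the counts-per-million scale of the class, after TMM scaling (CPM). In monocyte/macrophage-like cells 8 of the 9 genes could be tested. Between medium R848-BPD and saline 2 of them, C2 and Cfb, rose and none fell, where 7.04% of the 10669 genes tested were called in either direction. The median of the 8 log2 fold changes was 0.01, beside -0.004 for all genes. Between free R848 and saline 0 were called by edgeR and 0 by DESeq2, where 0.0187% of all genes were called. At an unadjusted p under 0.05 there were 3 members (C2, Cfb and Cfp), beside 11.8% of all genes. Between medium R848-BPD and free R848 0 were called by either tool, where 1.54% of all genes were called, and 1 of 8, Cfp, was under that unadjusted limit, close to the 14.1% of all genes.

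Cfb, the protease of the alternative route, was at 94.5, 119 and 77.3 CPM in the 3 saline tumors, at 176, 149 and 158 CPM after free R848, and at 149 and 182 CPM after medium R848-BPD. Every treated tumor was above every saline tumor, and the 2 drugs overlapped. Against saline the log2 fold change was 0.76 ± 0.18 (SE) after medium R848-BPD (adjusted p = 0.0386, edgeR quasi-likelihood test with Benjamini-Hochberg adjustment). After free R848 the difference was of like size, 0.74 ± 0.16, but was not called (adjusted p = 0.251, edgeR). Cfb did not differ between the drugs beyond error, with a log2 difference of 0.02 and a 95% interval from -0.39 to 0.43. The call of Cfb rested on few tumors: it was kept without saline replicate 2 (log2 fold change 0.91, adjusted p = 0.00627, edgeR) and lost without any of the other 7 tumors, with values from 0.58 without medium R848-BPD replicate 2 to 0.92 without medium R848-BPD replicate 1. It was also lost with only the 2 treatments in the fit (adjusted p = 0.116, edgeR), with a replicate block (0.0833) and with 491 cells per tumor (0.0709). Free R848 against saline was called as well when saline replicate 2 was left out (0.90, adjusted p = 0.026, edgeR).

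The share of positive cells showed the same order. After UMIs were drawn at random to 1000 per cell, which left out 17 shallower monocyte/macrophage-like cells, Cfb was found in 7.86% ± 1.78 (SD, n = 3) of these cells after saline, 14.3% ± 2.43 (n = 3) after free R848 and 15.05% ± 0.99 (n = 2) after medium R848-BPD. The saline tumors reached 9.85% at most and the treated tumors 11.8% at least. In NK-like cells, taken as a background, the share was at most 0.99% in any tumor, and in T-like cells at most 1.82%. The two-sided exact permutation test gave p = 0.1 for free R848 and p = 0.2 for medium R848-BPD against saline, both adjusted to 0.675 over 27 tests, and such groups cannot go below 0.1. Within the 12 clusters of this class, Cfb was higher after free R848 than after saline in 12 of 12, and higher after medium R848-BPD in 8 of the 10 clusters with at least 10 cells of both treatments. The remaining clusters held 6 and 9 prodrug cells, with Cfb at 150.4 against 102 CPM and 105 against 66.9 CPM. These cluster values pool the cells of a treatment, and the clusters share tumors and are not replicates. No such tally was made over all genes.

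C2, the protease of the classical C3 convertase and the neighbour of Cfb, was at a far lower level. Its UMIs in monocyte/macrophage-like cells numbered 3, 7 and 4 after saline, 15, 17 and 8 after free R848, and 20 and 10 after medium R848-BPD. As CPM these were 0.70, 1.01 and 1.47 for saline, 3.54, 3.72 and 3.06 for free R848, and 3.56 and 3.69 for the prodrug. The saline tumors lay below all 5 treated tumors, whose values were close together. The log2 fold change was 1.79 ± 0.41 for medium R848-BPD against saline (adjusted p = 0.0349, edgeR) and 1.75 ± 0.38 for free R848 (adjusted p = 0.251, edgeR), and the drugs differed by 0.04 with an interval from -0.78 to 0.85. The C2 call was kept without saline replicate 3 (1.999, adjusted p = 0.0355, edgeR) and lost without any of the other 7 tumors, with values from 1.59 without saline replicate 1 to 1.84 without medium R848-BPD replicate 1. The C2 call was also lost with only the 2 treatments in the fit (adjusted p = 0.112, edgeR), with a replicate block (0.0822), with 491 cells per tumor (0.114) and with DESeq2 (0.0707).

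C2 and Cfb are also fibroblast transcripts, so the RNA of that cell type was measured beside them. MC38-like cells held 228 C2 UMIs, against 223 in fibroblast-like cells, but MC38 RNA in the monocyte/macrophage-like class was not measured. Sums over marker genes and values of single clusters are given as plain CPM, with no TMM scaling. In monocyte/macrophage-like cells the 6 fibroblast markers (Col1a1, Col3a1, Dcn, Pdgfra, Lum and Col1a2) summed to 27.1 to 42.7 CPM after medium R848-BPD, 15.1 to 22.4 after free R848 and 10.7 to 18.1 after saline, with 5 or 6 of the 6 found in each tumor. The part of this RNA in the C2 and Cfb results was not tested. Of all Serping1 UMIs, the transcript found in each fibroblast-like cell, 27 of 2346 were in monocyte/macrophage-like cells, against 84 of 561 for C2 and 4612 of 5420 for Cfb.

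**Figure D2:**
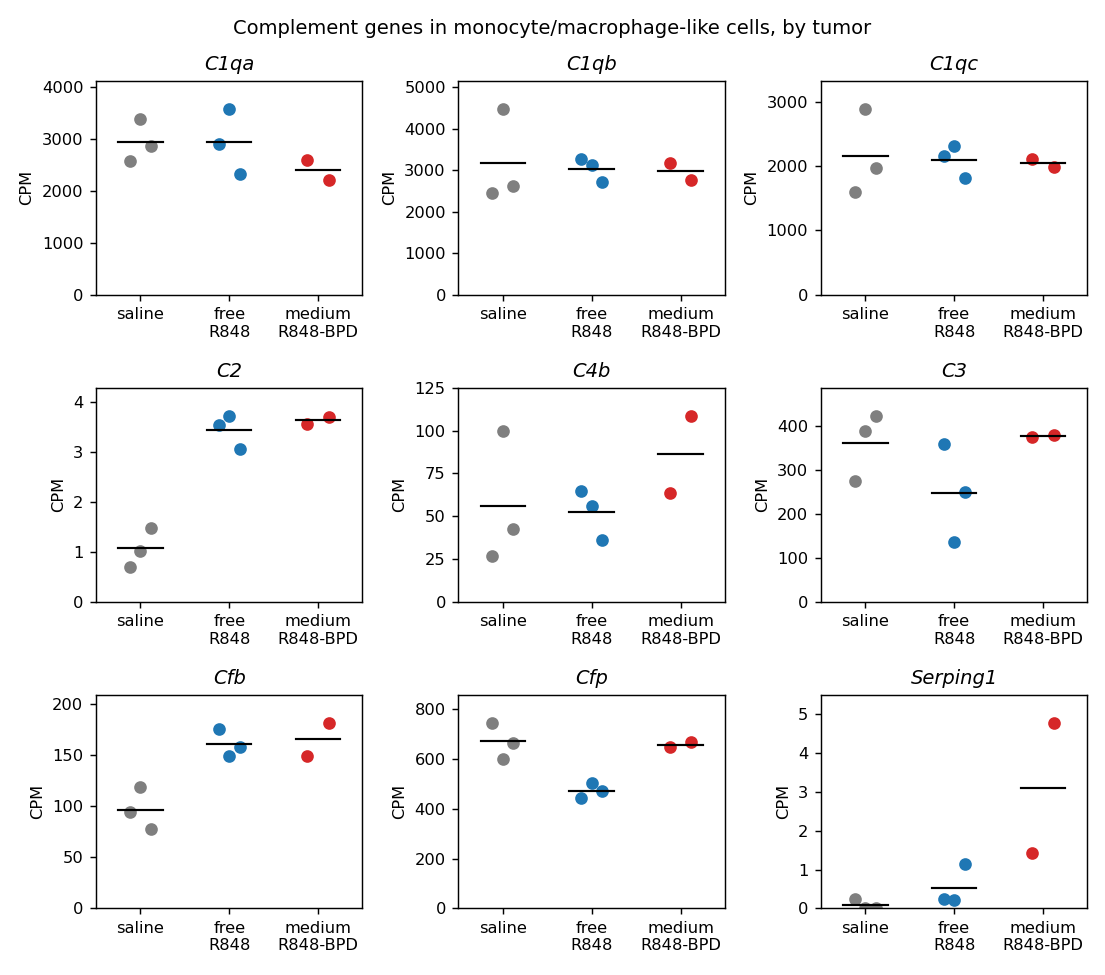
CPM (y axis, starting at 0, its own scale for each gene) in monocyte/macrophage-like cells for the 9 complement genes, with 1 point per tumor and a bar at the group mean. For Cfb and C2 the 5 treated tumors lie above the 3 saline tumors, for Cfp the 3 free R848 tumors lie below the other 5, and for the C1q genes the groups overlap.

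Cfp, properdin, went the other way after free R848. Its values in monocyte/macrophage-like cells were 746, 600 and 664 CPM after saline, 445, 502 and 470 CPM after free R848, and 648 and 667 CPM after medium R848-BPD. The free R848 tumors were below all others and the prodrug tumors lay among the saline tumors. Free R848 against saline gave -0.50 ± 0.13 (adjusted p = 0.284, edgeR), and medium R848-BPD against free R848 gave 0.46 ± 0.15 with an interval from 0.13 to 0.79 (adjusted p = 0.176, edgeR), so neither passed the threshold over all genes. Cells with a Cfp UMI at 1000 UMIs per cell made up 29.9% ± 1.66 (n = 3) after free R848, 38.8% ± 2.90 (n = 3) after saline and 37.5% ± 1.75 (n = 2) after medium R848-BPD (exact permutation p = 0.1 for free R848 against saline and 0.2 for the prodrug against free R848, both 0.675 when adjusted). In NK-like cells the share reached at most 3.96%, in T-like cells 9.09%. Cfp was higher after medium R848-BPD than after free R848 in 10 of the 10 clusters with at least 10 cells of both treatments. Of the remaining clusters, 1 with 6 prodrug cells went the other way (527 against 761 CPM) and 1 with 9 did not (523 against 468 CPM). Free R848 was below saline in 9 of 12 clusters and above it in 3. Here too the clusters share tumors and are not replicates.

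For the C1q chains, the most macrophage-bound of these genes, no difference between treatments was called in this class. C1qa was at 2577, 3389 and 2873 CPM after saline, 2917, 3586 and 2322 CPM after free R848, and 2593 and 2223 CPM after medium R848-BPD. The 3 groups overlapped. Medium R848-BPD against saline gave log2 fold changes of -0.30 ± 0.21 for C1qa, -0.10 ± 0.25 for C1qb and -0.08 ± 0.23 for C1qc (adjusted p = 0.403, 0.841 and 0.872, edgeR). Free R848 against saline gave 0.00, -0.06 and -0.03, and the 95% intervals of the difference between the drugs ran from -0.77 to 0.16 for C1qa, from -0.60 to 0.51 for C1qb and from -0.57 to 0.48 for C1qc. For C1qb saline replicate 2, at 4476 CPM, was above the range of 2443 to 3258 CPM of the other 7 tumors, and for C1qc it was highest as well, at 2887 CPM against 1599 to 2318 CPM. Without that tumor, medium R848-BPD against saline turned to 0.21 for C1qb and 0.17 for C1qc. Free R848 against saline turned to 0.25 and 0.22, and none of these was called.

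Cells with at least 1 UMI of any C1q gene made up 69.9% ± 19.5 (n = 3) after saline, 72.3% ± 7.35 (n = 3) after free R848 and 75.3% ± 0.32 (n = 2) after medium R848-BPD. The large spread under saline came from a range of 58.1% to 92.3%. Within clusters C1qa was lower after medium R848-BPD than after saline in 10 of the 10 clusters compared, C1qb in 8 and C1qc in 9, although the clusters share tumors and are not replicates. The tally pools cells by treatment, saline replicate 2 included. Cells of the groups also lay in different clusters. Clusters low in C1q held 337, 205 and 146 saline cells against 13, 9 and 207 prodrug cells, and a C1q-rich cluster 337 against 59. The part of this in the class values was not tested. Between the 12 clusters of the class C1qa ran from 141 to 4758 CPM, Cfb from 60.1 to 243 and C4b from 8.87 to 135.

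C3, on which all routes meet, and C4b varied between tumors without a called difference in the main fit. With no low-count filter, both were called between the drugs, C4b between medium R848-BPD and saline, and C3 between free R848 and saline. The share of all genes called in that fit is not given. C3 stood at 274, 390 and 424 CPM after saline, 359, 135 and 250.1 CPM after free R848, and 377 and 380.5 CPM after medium R848-BPD. The prodrug tumors fell inside the saline range. The log2 difference between the drugs was 0.59 ± 0.34 with an interval from -0.18 to 1.36 (adjusted p = 0.491, edgeR). C4b ranged from 26.4 to 99.6 CPM after saline, from 36.3 to 64.6 CPM after free R848 and from 63.7 to 109 CPM after medium R848-BPD, and its interval between the drugs, from -0.41 to 1.77, was the widest of the 8. Without saline replicate 2, C4b was called between medium R848-BPD and saline (log2 fold change 1.31, adjusted p = 0.032, edgeR), against 0.58 ± 0.48 with it. A miss of the threshold does not show that the drugs act alike on these genes. Serping1, at 0 to 4.79 CPM, was too rare to test in this class, with 8 and 13 UMIs after medium R848-BPD, 1, 1 and 3 after free R848 and 1, 0 and 0 after saline.

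The prodrug tumors also held cells positive for both Cd38 and Saa3. By this pair of genes the study named a monocyte subset and a macrophage subset, which were not told apart here. The class was searched for cells in which each of the pair had 1 or more UMIs at 1000 UMIs per cell, and these numbered 114 against 604 other cells in medium R848-BPD replicate 1 and 130 against 397 in replicate 2. C4b was higher in the double-positive cells in both tumors, by 1.59 and 1.51 on the log2 scale, from 47.7 to 144 and from 70.1 to 199.9 CPM. C3 was higher by 0.59 and 0.78, Cfp by 0.50 and 0.43 and Cfb by 0.31 and 0.25. The C1q genes had no common direction, with C1qa at -0.11 and 0.42. C2 had 0 UMIs in the double-positive cells of either tumor. These are values of 2 tumors, with no test.

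**Figure D3:**
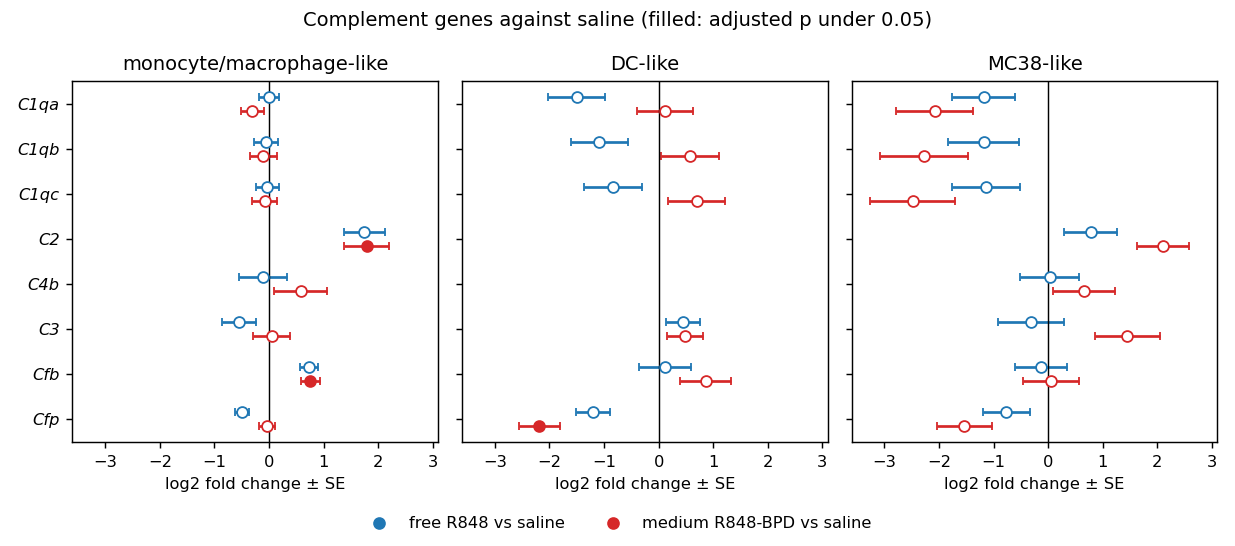
Log2 fold change against saline (x axis, bars are standard errors) of the 8 complement genes tested by edgeR in monocyte/macrophage-like, DC-like and MC38-like cells, for free R848 (blue) and medium R848-BPD (red). Filled points passed an adjusted p of 0.05 and are C2 and Cfb in monocyte/macrophage-like cells and Cfp in DC-like cells, all after medium R848-BPD. C2 and C4b have no point in DC-like cells because they were too rare to test.

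In DC-like cells, the antigen-presenting dendritic class, 6 of the 9 genes were tested and Cfp fell. Its values were 764, 495 and 855 CPM after saline, 147, 309 and 459.9 CPM after free R848, and 138 and 181 CPM after medium R848-BPD. All 5 treated tumors were below the 3 saline tumors, and 1 free R848 tumor lay among the prodrug tumors. Cfp fell by 2.19 ± 0.37 on the log2 scale after medium R848-BPD (adjusted p = 0.00197, edgeR), where 13.4% of 6032 genes were called. The call held without each of the 8 tumors in turn, with log2 fold changes of -2.39 to -1.98 and adjusted p from 4.83e-05 to 0.0377 (edgeR). Free R848 against saline gave -1.21 ± 0.31 (adjusted p = 0.0651, edgeR; 1.39% of genes called), and the prodrug against free R848 gave -0.98 ± 0.37, with an interval from -1.77 to -0.20 (adjusted p = 0.304, edgeR; 0.63% called). DESeq2 called Cfp for free R848 too, and 0 of the 6 members between the drugs. Free R848 against saline was called without free R848 replicate 3 (-1.64) and without saline replicate 2 (-1.39), and the drugs differed by a call without free R848 replicate 1.

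The DC-like class was made of 2 clusters whose proportions moved with Cfp. One had Flt3, Kmo and Ciita, a gene of antigen presentation, among its leading genes. It held 79.7%, 69.2% and 69.3% of DC-like cells after saline, 17.8%, 43.4% and 44.9% after free R848, and 12.5% and 14.5% after medium R848-BPD. The other had Ccl22, Il12b and Ccr7, genes of activated dendritic cells, among its leading genes, and Flt3 as well. Cfp stood at 740.0 to 1193 CPM after saline, 557 to 873 after free R848 and 519 to 643 after medium R848-BPD in the cluster with Kmo and Ciita. In the cluster with Ccl22 and Ccr7 the ranges were 45.3 to 220, 53.9 to 120.2 and 65.4 to 118. Fitted within each cluster, an alternative added after the data were seen, the Cfp call was lost: the log2 fold change after medium R848-BPD was -0.77 ± 0.31 in the first (adjusted p = 0.309, edgeR) and -1.06 ± 0.42 in the second (adjusted p = 0.224, edgeR). The part of the cluster proportions in the result for the whole class was not tested.

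**Figure D4:**
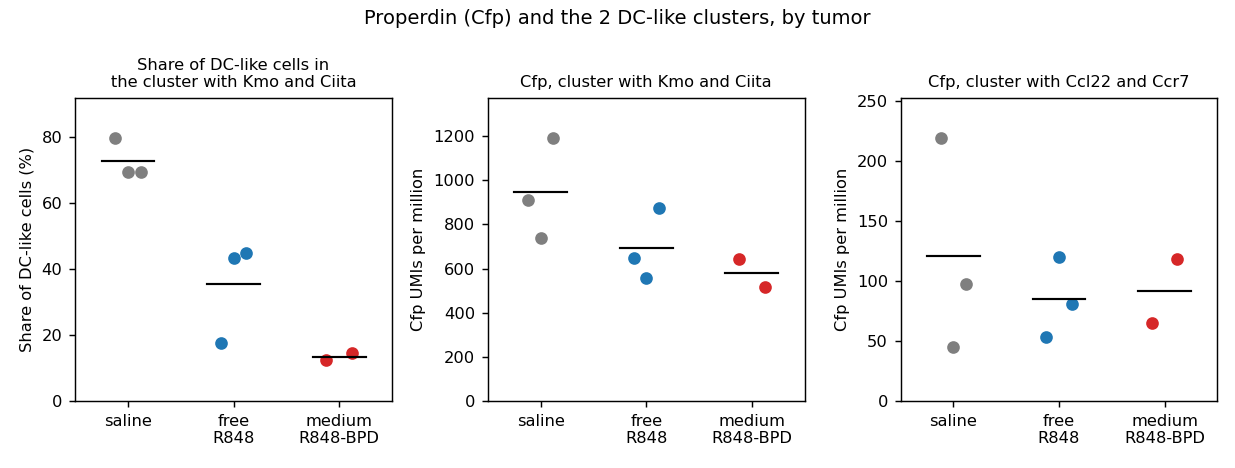
Left, share of DC-like cells (percent) in the cluster with Kmo and Ciita. Middle and right, Cfp CPM in each of the 2 DC-like clusters, with 1 point per tumor, a bar at the group mean and axes that start at 0 with different scales. The share falls from 69.2% or more after saline to 14.5% or less after medium R848-BPD, while within the cluster with Ccl22 and Ccr7 the groups overlap.

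The C1q genes in DC-like cells were higher after medium R848-BPD than after free R848 by 1.62 ± 0.54 (C1qa), 1.66 ± 0.54 (C1qb) and 1.53 ± 0.54 (C1qc), none of them called (adjusted p = 0.22, 0.199 and 0.259, edgeR). Within the cluster with Ccl22 and Ccr7 alone, C1qb (1.84, adjusted p = 0.0472, edgeR) and C1qc (2.33, adjusted p = 0.0315, edgeR) were called between the drugs, and C1qa was called in the whole class with poor-quality cells kept (1.85, adjusted p = 0.0463, edgeR). With 26 cells per tumor the difference between the drugs was gone for C1qb (-0.35, adjusted p = 0.929, edgeR) and C1qc (-0.07, adjusted p = 0.987, edgeR). C1qb was at 429 and 430 CPM after medium R848-BPD, 37.7, 147 and 208 CPM after free R848, and 269, 560 and 84.7 CPM after saline. The prodrug tumors exceeded the free R848 tumors and lay within the saline range. The summed macrophage tracers in the same cells were 4310 to 4736 CPM after medium R848-BPD and 4087 to 5411 after free R848, and did not share this order, whereas saline replicate 2 had 10192 against 3995 and 5092 in the other saline tumors. C3 and Cfb in DC-like cells gave log2 fold changes of 0.49 and 0.86 for medium R848-BPD against saline (adjusted p = 0.38 and 0.256, edgeR). That of C3 rested on single tumors: it was -0.12 without medium R848-BPD replicate 1 and 0.82 without replicate 2, and 1.45 and called with poor-quality cells kept (adjusted p = 0.0202, edgeR).

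T-like, NK-like and MC38-like cells held C1q UMIs too, and these were set beside the macrophage tracers. As a mean over the 8 tumors, C1qa, C1qb and C1qc in T-like cells stood at 7.01%, 6.50% and 7.96% of the monocyte/macrophage-like level of the same tumor, and the 10 tracers at 3.27% to 10.7%, with a median of 6.17%. Saline replicate 2 carried these means: it held the maxima of 24.7%, 25.3% and 29.4%, and without it the chains stood at 4.49%, 3.82% and 4.89% and the tracers at a median of 3.98%. In NK-like cells the chains stood at 1.95%, 1.87% and 1.84% and the tracers at a median of 2.23%. In MC38-like cells they were at 1.96%, 1.99% and 1.81% beside 2.44%. Without saline replicate 2 the NK-like chains stood at 1.34% to 1.47% beside a tracer median of 1.80%, and the MC38-like chains at 1.37% to 1.52% beside 1.88%. As means over tumors, the C1q shares lay inside the tracers' range in each of these 3 classes. Tumor by tumor the relation was looser: the C1q sum was 3.33% to 44.6% of the tracer sum in T-like cells, 1.48% to 42.5% in NK-like and 9.75% to 36.6% in MC38-like cells, against 25.1% to 40.9% in monocyte/macrophage-like cells. C1qa, C1qb and C1qc made up 35.3%, 38.4% and 26.3% of C1q UMIs in monocyte/macrophage-like cells and 36.6%, 39.6% and 23.8% in MC38-like cells. In T-like cells they made up 35.3%, 36.5% and 28.2%, with SDs of 9.32 to 16.1 points, and in NK-like cells 47.9%, 30.9% and 21.2%, with SDs of 9.37 to 22.2 points, where a tumor could hold as few as 3 and 1 C1q UMIs. In DC-like cells the tracers ran from 7.68% to 50.3% with a median of 16.8%, and C1qa, C1qb and C1qc stood at 6.74%, 8.65% and 7.48%. Whether C1q UMIs in T-like, NK-like and MC38-like cells came from free macrophage RNA was not tested.

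By tumor, the C1q sum in T-like cells was 43.9, 2750 and 17.1 CPM after saline, 546, 256 and 358 after free R848, and 681 and 408 after medium R848-BPD. The tracer sum was 551, 6161 and 512, then 1247, 1383 and 1203, then 1679 and 1055. Saline replicate 2 was highest in both measures, and the other saline tumors were lowest in both. In NK-like cells it reached 591 for C1q and 1660 for the tracers, against at most 263 and 802 in the other tumors, and in MC38-like cells 561 and 1535 against at most 224 and 767. In T-like cells the comparison of C1q with saline hung on that tumor: C1qa went from -0.51 to 4.85 on the log2 scale between medium R848-BPD and saline when it was left out.

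**Figure D5:**
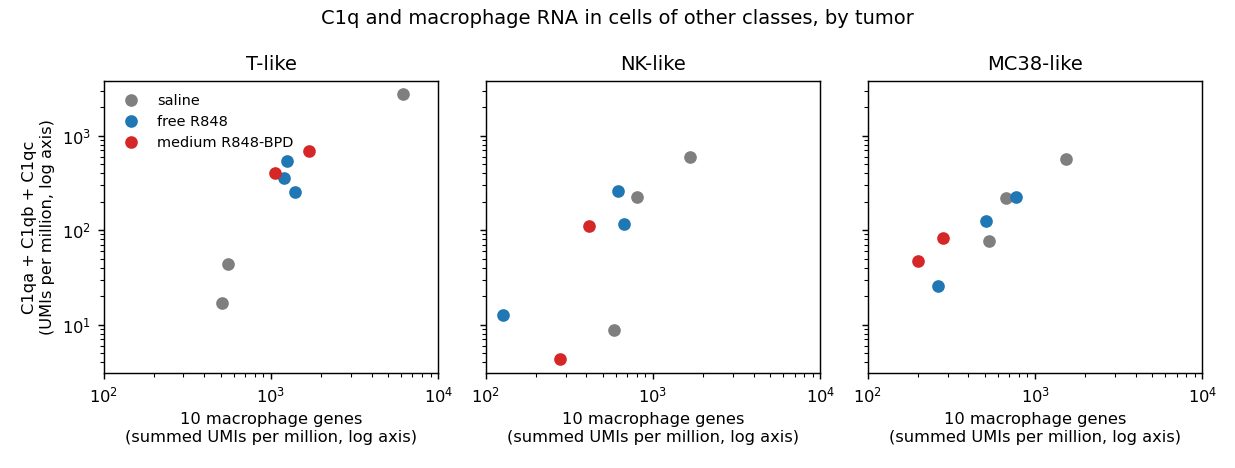
Summed C1qa, C1qb and C1qc (y axis) against the sum of 10 macrophage tracer genes (x axis), both in CPM on log axes, in T-like, NK-like and MC38-like cells, with 1 point per tumor. Saline replicate 2 is the point at the upper right of each panel.

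No member was called in T-like or NK-like cells. In T-like cells 5 members were tested and 0 called by edgeR or DESeq2 in the 3 comparisons, with C3 at an unadjusted p under 0.05 between the drugs (5.88% of all genes) and C3 and Cfp between free R848 and saline (4.32%). Of 6155 genes, 0.0162% were called between the drugs, 0.0162% between medium R848-BPD and saline and 0% between free R848 and saline. In NK-like cells, where C2 had 0 UMIs in all 8 tumors, 5 members were tested and 0 called by either tool, with Cfp at an unadjusted p under 0.05 between free R848 and saline (4.5% of all genes). The shares of 8490 genes called were 0.271% between the drugs, 0.895% between medium R848-BPD and saline and 0% between free R848 and saline.

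In MC38-like cells C4b, C3 and Cfb stood at 23.6%, 13.1% and 7.11% of the monocyte/macrophage-like level, above the tracers' range of 1.59% to 2.95%, and C2 had more UMIs there than in monocyte/macrophage-like cells. For C2 the values were 4.54, 4.67 and 3.11 CPM after saline, 11.7, 5.97 and 3.33 CPM after free R848, and 26.8 and 12.3 CPM after medium R848-BPD. Both prodrug tumors were above all 6 others. C2 gave 2.10 ± 0.48 for medium R848-BPD against saline (adjusted p = 0.0692, edgeR) and 1.32 ± 0.44 against free R848, with an interval from 0.36 to 2.28 (adjusted p = 0.208, edgeR). DESeq2 called C2 against saline (adjusted p = 0.0148). C3 was at 25.2, 32.7 and 38.3 CPM after saline, 38.0, 19.3 and 14.7 CPM after free R848, and 157 and 22.9 CPM after medium R848-BPD. The value of C3 was set by medium R848-BPD replicate 1: its log2 fold change against saline was 1.45 ± 0.60 (adjusted p = 0.296, edgeR), -0.48 without that tumor and 2.32 without medium R848-BPD replicate 2, where it was called.

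Fibroblast markers in MC38-like cells were high in all groups, at 907 to 3203 CPM after saline, 1198 to 1348 after free R848 and 972 to 2260 after medium R848-BPD, with 6 of 6 found in each tumor. The highest prodrug sum was that of replicate 1, also the tumor with the most C2 and C3, while saline replicate 3 had the highest sum of all with 3.11 CPM of C2. Their part in the C2 and C3 values was not tested. With edgeR 0 of the 8 members tested were called in MC38-like cells in any comparison, where 0.287% of 10799 genes were called between the drugs, 0.806% between medium R848-BPD and saline and 0% between free R848 and saline. At an unadjusted p under 0.05 there were 2 between the drugs (C2 and C3), 6 against saline after medium R848-BPD (C2 and C3 with higher values, C1qa, C1qb, C1qc and Cfp with lower) and 0 after free R848, beside 14.3%, 14.4% and 8.44% of all genes, and DESeq2 called 0, 1 and 0. The log2 fold changes against saline after medium R848-BPD were -2.08 for C1qa, -2.28 for C1qb, -2.49 for C1qc and -1.54 for Cfp, with a median of -0.743 over the 8 members beside 0.0137 for all genes. The macrophage tracers summed to 281 and 199 CPM in these tumors against 533, 1535 and 671 CPM after saline, highest in saline replicate 2, without which the C1q values were -1.08, -0.98 and -1.33. Their part was not tested.

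Whether the drugs differed more in 1 class than in another was tested with a class-by-treatment term. For the contrast of medium R848-BPD with free R848, 0 members were called by edgeR between monocyte/macrophage-like and DC-like, NK-like or MC38-like cells, where 0.322%, 0.157% and 0.447% of genes were called. The 2 closest were Cfp, whose log2 difference was 1.36 ± 0.34 larger in monocyte/macrophage-like than in DC-like cells (adjusted p = 0.101, edgeR), and C1qb, with -1.78 ± 0.48 (adjusted p = 0.15, edgeR). Without free R848 replicate 1, Cfp passed the threshold for DC-like cells, and without saline replicate 2 it passed for DC-like and MC38-like cells.

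The rest of the pathway was read from lists of 16 initiators and proteases, 7 terminal components, 19 regulators and 10 receptors, of which 51 of 52 were listed in the data. In monocyte/macrophage-like cells 18 could be tested, with 3 higher and 1 lower after medium R848-BPD than after saline, 1 higher than after free R848 and 0 called by edgeR between free R848 and saline, where 7.04%, 1.54% and 0.0187% of all genes were called. Receptors accounted for most of these calls. C3ar1, the receptor of the C3a fragment, was at 549, 559 and 619 CPM after saline, 837, 895 and 898 CPM after free R848, and 1023 and 990.0 CPM after medium R848-BPD. The 3 groups did not overlap. C3ar1 rose by 0.79 ± 0.13 after medium R848-BPD (adjusted p = 0.011, edgeR) and gave 0.61 ± 0.12 after free R848 (adjusted p = 0.251, edgeR).

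Itgam and Itgax, the alpha chains of complement receptors 3 and 4, moved in opposite directions. Itgam rose after medium R848-BPD by 0.87 ± 0.16 against saline (adjusted p = 0.0151, edgeR) and by 0.80 ± 0.16 against free R848 (adjusted p = 0.0436, edgeR), with 1843 and 1734 CPM against 889.9 to 1126 CPM in the other 6 tumors. Itgax fell by 1.94 ± 0.44 against saline (adjusted p = 0.0333, edgeR). Cd55, a regulator that speeds the decay of C3 convertases and also a leading gene of an NK-like cluster, rose by 2.62 ± 0.65 (adjusted p = 0.045, edgeR) from 4 to 9 UMIs per saline tumor to 52 and 32. With only the 2 treatments compared in the fit, the calls against saline were lost for C3ar1 (adjusted p = 0.0679), Itgam (0.0667), Itgax (0.108) and Cd55 (0.0861, all edgeR), and that of Cd55 also at a 10% mitochondrial limit (0.0515), with 491 cells per tumor (0.0905) and with only complement genes left out of clustering (0.064). Each of these calls was also lost when certain tumors were left out: C3ar1 without medium R848-BPD replicate 2 (0.79, adjusted p = 0.0965, edgeR), and Itgam against saline without medium R848-BPD replicate 1 (0.85) or 2 (0.89). Itgam against free R848 was lost without any tumor but saline replicates 2 and 3. Itgax was lost without any free R848 tumor (-1.94), and likewise when saline replicate 1 (-2.10) or medium R848-BPD replicate 2 (-1.40) was removed. For Cd55 the tumors whose removal ended the call were both of the prodrug (2.81 without replicate 1 and 2.40 without replicate 2), replicates 1 (2.61) and 3 (2.62) of free R848, and replicate 1 of saline (2.72).

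In DC-like cells C3ar1 rose by 1.29 ± 0.38 (adjusted p = 0.0325, edgeR), while Itgax fell by 1.99 ± 0.43 (adjusted p = 0.00677, edgeR) and Itgb2, the beta chain that pairs with both, fell by 1.37 ± 0.31 (adjusted p = 0.00927, edgeR), all after medium R848-BPD against saline. None of the 3 was called within either DC-like cluster, and C3ar1 was not called by DESeq2 (adjusted p = 0.0866) or with doublets removed (0.0675). Left out singly, medium R848-BPD replicate 2 (0.94), saline replicate 1 (1.09) and saline replicate 3 (1.04) ended the call of C3ar1. Leaving out medium R848-BPD replicate 1 or 2 ended those of Itgax (-2.15 and -1.89) and Itgb2 (-1.34 and -1.39). In NK-like cells Itgax fell by 2.56 ± 0.45 against saline (adjusted p = 0.00566, edgeR) and by 2.25 ± 0.46 against free R848 (adjusted p = 0.0448, edgeR). The first was lost without medium R848-BPD replicate 1 (-2.28) and the second without any free R848 tumor (-2.33 to -2.13) or any prodrug tumor (-1.98 and -2.30). The second was lost as well with poor-quality cells kept (adjusted p = 0.0548, edgeR) and at a 10% mitochondrial limit (0.0539), and both were lost with 43 cells per tumor (0.0722 and 0.11).

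Of the initiators in monocyte/macrophage-like cells 4 of 16 were tested and 0 called by edgeR. After medium R848-BPD against saline the log2 fold changes were 1.48 for Fcna (ficolin, a lectin that starts the cascade), 1.10 for C1rl, 0.89 for C1ra, whose protein family holds the C1 proteases, and 0.82 for Colec12, with adjusted p from 0.212 to 0.461 (edgeR). Their median was 0.995, beside -0.004 for all genes. Of the regulators not called, Cd59a, which blocks the membrane attack complex, gave -0.71 and Cr1l, a regulator of C3 convertases, gave -0.14 (adjusted p = 0.651 and 0.643, edgeR). The receptors Itgb2, Cd93, Lrp1 and Calr gave 0.26, -0.49, -0.15 and 0.05. None of the 7 terminal components, which form the membrane attack complex, passed the filter on low counts in monocyte/macrophage-like cells, and 1 did in MC38-like cells.

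Across the 8 tumors, the genes whose log2 CPM in monocyte/macrophage-like cells followed each member most closely were ranked among 6821 genes. These 8 points share libraries and treatments, and the correlations are descriptions. Cfb was closest to H2-T24 (Pearson r = 0.992), Snapin (0.988) and Tlr7 (0.979), the receptor of R848. C2 was closest to C3ar1 (0.964), Cdc34 (0.962) and Zranb2 (0.957), and Cfp to Acsl4 (0.968), Pon2 (0.945) and Eprs (0.938). C1qb and C1qc both had Phf15 at the top (0.982 and 0.961). C1qb was followed by Cln6 (0.977) and C2cd3 (0.948), and C1qc by Ccs (0.945) and C1qb (0.939). C1qa followed Umps (0.97), Pygb (0.962) and Pwwp2b (0.942), C3 followed 1110037F02Rik (0.951), Rnf123 (0.913) and Cdk5rap2 (0.904), and C4b followed Mtx1 (0.953), Scly (0.944) and Enpp4 (0.931).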

How the data were processed

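For each of 8 tumors the deposited file held raw UMI counts by gene symbol and barcode, which the authors made from Seq-Well reads that were demultiplexed (bcl2fastq) and placed on mm10 (GRCm38). Aligner, annotation and how many barcodes were to be kept are not given in the sources used here, and no normalization had been applied. Complement genes and lists were chosen with earlier results of these data known. Columns of other samples numbered 0.

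A cell needed over 400 genes, and those with 10000 genes, with 50000 UMIs or with over 15% mitochondrial UMIs were dropped. Scrublet marked 67 (0.678%) as doublets, which were kept. Of the 23 barcodes found in more than 1 tumor, 9 were in all 8, and 59 kept cells carried such barcodes. Clustering in Seurat 5.3.0 (R 4.3.3) used 30 principal components at resolution 0.8, then 11 at 1.3 for nonmalignant cells, on 566 variable genes after 1035 genes (the study's table of changed genes and all complement genes) were left out. The cluster with the highest mitochondrial share (median 5.91%) and under 0.5 times its tumors' UMIs was removed. A cluster of 172 cells with close T and macrophage scores (0.397 and 0.452) stayed in the monocyte/macrophage-like class. Class names rest on marker genes.

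Counts were summed per tumor and class with at least 10 cells and tested with edgeR 4.0.16 (TMM, filterByExpr, quasi-likelihood F test, all 3 treatments in 1 fit, Benjamini-Hochberg over all genes, 0.05). SE was obtained by dividing a log2 fold change by the root of its F. Monocyte/macrophage-like sums held 2675705 to 6662363 UMIs per tumor and DC-like sums 134720 to 836978. In simulated counts for medium R848-BPD against saline, 45.5% of 2-fold and 85% of 4-fold changes were recovered among 10525 genes in monocyte/macrophage-like cells, and 24% and 91.8% among 5731 genes in DC-like cells, with 8 false calls each. Shares of cells were taken after drawing to 1000 UMIs and compared by two-sided exact permutation. Per class, the 9 members are named, with every other complement gene called, up to 4 uncalled genes per list by mean level (some items are not reported here), and the 3 genes most correlated with each member (mean log2 CPM of at least 4, prior count 2). Nothing says that tumors were processed apart, so p-values measure the spread between these samples. Same-numbered tumors did not deviate together (correlations of -0.239 to 0.225), so numbers do not pair them. Alternatives were DESeq2 1.42.0, other size factors, no low-count filter, a replicate block, other cell limits, depths and clusterings, equal cell numbers and each tumor left out. Alternatives after seeing the data were shared barcodes removed, the mixed cluster removed, and each DC-like cluster alone. limma 3.58.1, scanpy 1.11.5 and scipy 1.17.1 were also used.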

Additional observations from a re-analysis of the deposited data

How the results depend on the processing

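Counts below are complement genes called. The share of all genes called under each alternative is not given beside them, so they do not tell complement genes from others. In monocyte/macrophage-like cells after medium R848-BPD against saline (2), DESeq2 called 1, no low-count filter 4, only the 2 treatments 0 and 491 cells per tumor 0. With no filter the other 2 comparisons of this class gave 2 (drugs) and 3 (free R848). In DC-like cells, between the drugs, no filter gave 4, poor-quality cells kept 1 and the cluster with Ccl22 and Ccr7 alone 2. For the prodrug against saline (1), poor-quality cells kept gave 2, 26 cells per tumor 4 and either cluster alone 0. For free R848, DESeq2 gave 1, no filter 3, poor-quality cells kept 3, a 10% mitochondrial limit 1 and 26 cells 4. No filter gave 1, 1 and 5 in T-like cells, 3 and 2 against saline in NK-like cells, and 5, 6 and 3 in MC38-like cells, where DESeq2 and poor-quality cells kept each gave 1 for the prodrug against saline. Of the other complement genes (10), DESeq2 called 19 and no filter 45. The class-by-treatment term (0) gave 6 with no filter. The monocyte/macrophage-like share of C1q UMIs within the 5 main classes (97.0%, mean of tumors) was 95.001% with poor-quality cells kept.

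The tumors share only a replicate number: with the replicate block, 0 complement genes were called in monocyte/macrophage-like cells after medium R848-BPD against saline, 6 of the other complement genes were called, and Cfp in DC-like cells gave -1.96 (adjusted p = 0.00599, edgeR).

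With each tumor left out, counts ran from 0 to 2 (prodrug against saline) and 0 to 1 (free R848) in monocyte/macrophage-like cells, 0 to 1, 1 to 1 and 0 to 1 in DC-like, 0 to 2 in T-like, 0 to 0 in NK-like, 0 to 1 in MC38-like cells, 1 to 17 for the other complement genes and 0 to 2 for the class-by-treatment term. Shares of cells whose groups did not overlap numbered 7 to 14 of 27 comparisons, and 7 with all tumors. No such count was made over all genes. Among the 7 were comparisons near the floor, of C2 (means of 0.09% against 0.22%) and Serping1 (0.64% at most).

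A direction is counted as reversed where a value changed sign and either was called or both exceeded their SE. Such reversals were as follows. With 26 DC-like cells per tumor, the prodrug against saline gave -1.72 for C1qa, -2.31 for C1qb, -2.26 for C1qc and -1.78 for C3ar1. With 43 NK-like cells it gave 1.63 for C1qa, 2.11 for C1qb and 1.54 for C1qc, and free R848 gave 2.59 for C1qb and 1.91 for C1qc. In the DC-like cluster with Kmo and Ciita, C3 gave -1.01 (prodrug) and -0.93 (free R848), and Itgb2 gave 0.11 in that with Ccl22 and Ccr7. With each tumor left out, T-like values ran from -1.07 to 4.85 for C1qa and -1.43 to 3.80 for C1qc (prodrug), and from -1.81 to 4.12 for C1qa, -1.97 to 3.41 for C1qb and -1.98 to 3.26 for C1qc (free R848), each highest without saline replicate 2. C3 in MC38-like cells (prodrug) gave -0.48 without medium R848-BPD replicate 1 and 2.32 without replicate 2. Beyond the smaller samples by construction, the cause was not tested. Of 2059 values of single genes, 1900 were not reversed and kept their side of the threshold. Of these, 89 (43 results) changed sign with neither value called and at least 1 within its SE, among them, for the prodrug against saline, C1qb in T-like cells (-1.11, and 3.75 without saline replicate 2), C1qa in DC-like cells (0.12, and -0.70 without medium R848-BPD replicate 1 or -0.27 without saline replicate 3) and C3 in DC-like cells (0.49, and -0.12 without medium R848-BPD replicate 1). Depth limits what can be said of C2, with 3 to 20 UMIs per tumor in monocyte/macrophage-like cells, and of Serping1, which was too rare there to test.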
